A study of Mus musculus with 6 samples.

Results

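The genes of the NF-kB family and of its IkB inhibitors were examined in RAW264.7, a line of mouse macrophage-like cells. The group holds 10 named genes of the 39089 in the deposited gene table: the subunit genes Nfkb1, Nfkb2, Rel, Rela and Relb, and the IkB genes Nfkbia, Nfkbib, Nfkbie, Nfkbiz and Bcl3. They were matched by symbol, and all 10 were found, with 30 transcripts in the deposited transcript table. Cells of 3 libraries received lipopolysaccharide (LPS, bacterial endotoxin) together with low-intensity pulsed ultrasound (LIPUS), and cells of 3 further libraries received LPS alone. LPS was given at 100 ng/mL for 48 h in all 6 libraries. Ultrasound was applied at 45 mW/cm2 for 25 min in 2 sessions set 24 h apart. All cells were wild type, and no cells without LPS were analysed here. The series asks whether ultrasound restrains the inflammatory state that LPS induces in these cells.

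Gene counts summed to 14171061 to 14632288 per LPS+LIPUS library and 14984236 to 15956693 per LPS library. Of 10 macrophage markers 9 exceeded 1 TPM (transcripts per 1000000) in every library. The tenth, Mertk, stayed at or below 0.163 TPM, so this marker was near absent. Epithelial, T cell, B cell and endothelial markers all stayed below 1 TPM, and of 6 fibroblast markers only Dcn passed it. The labels do not say whether the libraries of a group came from separate cultures, so p-values measure the spread between these libraries only. RNA was measured in bulk, where fewer cells of a kind and less RNA per cell cannot be told apart.

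NF-kB is a dimer of Rel-family proteins that binds kappaB sites in DNA. In resting cells the dimers are held in the cytoplasm by IkB proteins. Signals such as LPS activate the IKK kinase complex, which marks the cytoplasmic IkB proteins for destruction and frees the dimers to enter the nucleus. RelA, c-Rel (from Rel) and RelB carry activation domains, while Nfkb1 and Nfkb2 encode precursors that are processed to smaller DNA-binding subunits. Nfkbia, Nfkbib and Nfkbie encode the cytoplasmic inhibitors IkB-alpha, IkB-beta and IkB-epsilon. Nfkbiz and Bcl3 encode nuclear IkB proteins that act with DNA-bound dimers. In macrophages NF-kB drives cytokine and chemokine genes and also genes of its own inhibitors, of which Nfkbia is the best known.

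In the mm10 annotation of the deposited table the subunit genes lie at chr3:135584655-135691969 (Nfkb1), chr19:46300994-46312400 (Nfkb2), chr11:23736847-23770969 (Rel), chr19:5637442-5648134 (Rela) and chr7:19606217-19629438 (Relb). The cytoplasmic IkB genes lie at chr12:55489409-55492647 (Nfkbia), chr7:28758251-28766644 (Nfkbib) and chr17:45555700-45563169 (Nfkbie), and the nuclear ones at chr16:55811375-55838954 (Nfkbiz) and chr7:19808462-19822824 (Bcl3). All 10 are protein-coding.

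Because several of these genes can be targets of NF-kB, their promoters were searched for kappaB sites. The RefSeq promoter table (build GRCm38.p6, which is mm10) held 9 starts for 7 of the genes, Nfkb2, Rel, Rela, Nfkbia, Nfkbib, Nfkbie and Bcl3. The table gave none for Nfkb1, Relb and Nfkbiz. The 250 bases before each start were searched on both strands for the kappaB consensus of 10 bases and for the GC box GGGCGG. The kappaB consensus was found in 6 of the 9 windows, against 3.90% of 32841 promoters in the table. They belonged to 4 of the 7 genes, at every Nfkb2 start and at the starts of Rel, Nfkbia and Nfkbie. The first Nfkb2 start held 2 separate stretches, as 0.143% of all promoters did. Rela, Nfkbib and Bcl3 had no match in this window, and the GC box was in 7 of the 9 windows, against 32.7% of all promoters. The 4 windows below carry the matches nearest to a start of each gene, written 5′ to 3′ on the gene's strand, with kappaB matches in capitals.
Nfkbia, chr12:55492648-55492897, minus strand: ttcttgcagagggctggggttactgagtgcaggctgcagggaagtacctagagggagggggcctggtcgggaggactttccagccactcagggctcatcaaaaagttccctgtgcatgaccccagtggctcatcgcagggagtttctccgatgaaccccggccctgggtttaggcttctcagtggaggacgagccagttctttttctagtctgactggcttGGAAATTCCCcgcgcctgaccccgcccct
Rel, chr11:23770970-23771219, minus strand: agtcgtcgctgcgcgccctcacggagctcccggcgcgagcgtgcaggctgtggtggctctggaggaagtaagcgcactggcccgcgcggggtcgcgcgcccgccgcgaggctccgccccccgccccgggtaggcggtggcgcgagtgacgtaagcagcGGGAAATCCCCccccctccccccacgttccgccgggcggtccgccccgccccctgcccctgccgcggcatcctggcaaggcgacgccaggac
Nfkb2, chr19:46304487-46304736, plus strand: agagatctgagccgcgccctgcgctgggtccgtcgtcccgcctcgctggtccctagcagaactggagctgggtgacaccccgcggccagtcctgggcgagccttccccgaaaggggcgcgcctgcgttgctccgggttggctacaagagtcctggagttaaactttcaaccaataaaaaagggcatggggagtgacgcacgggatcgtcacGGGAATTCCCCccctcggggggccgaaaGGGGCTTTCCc
Nfkbie, chr17:45555450-45555699, plus strand: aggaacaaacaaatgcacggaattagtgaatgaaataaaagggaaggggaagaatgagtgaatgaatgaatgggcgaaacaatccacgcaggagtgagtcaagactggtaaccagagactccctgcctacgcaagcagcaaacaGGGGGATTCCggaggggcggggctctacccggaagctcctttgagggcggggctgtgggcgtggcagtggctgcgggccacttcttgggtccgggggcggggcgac
The match ended 20 bases before the Nfkbia start, 82 before the Rel start and 97 before the Nfkbie start, and 29 and 2 before the first Nfkb2 start. In Rel and Nfkb2 the capitals join overlapping matches, 1 of which reads as the consensus on both strands. A match describes these letters only and no binding was measured.

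**Figure D1:**
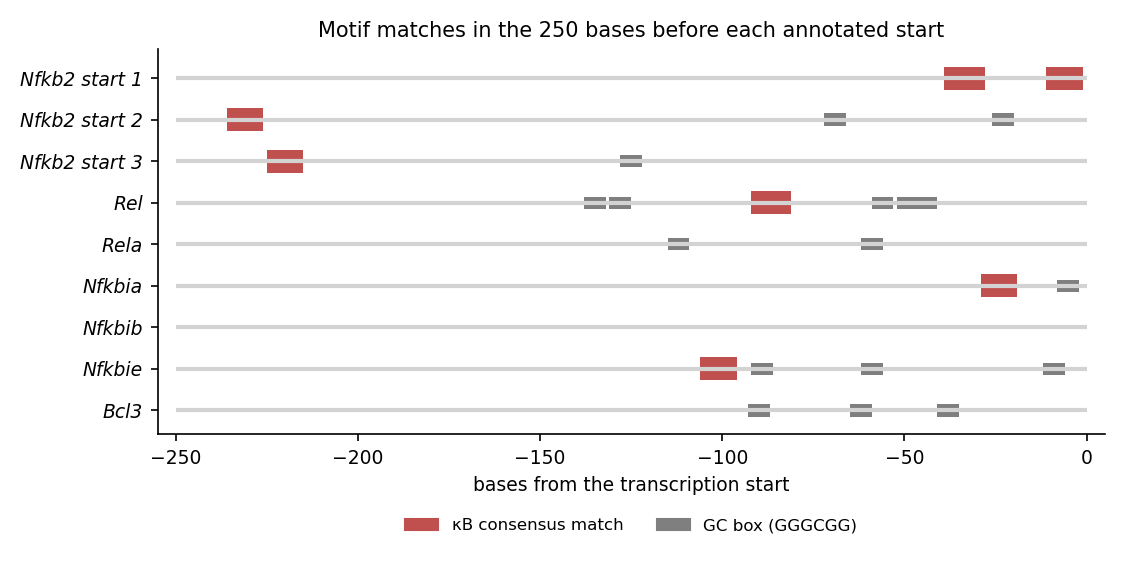
Positions of kappaB consensus matches (red) and GC boxes (grey) in the 250 bases before each annotated start of 7 member genes; the horizontal axis is the distance from the start in bases. The matches of Nfkbia and of the first Nfkb2 start lie within 40 bases of the start, those of Rel and Nfkbie lie farther out, and Rela, Nfkbib and Bcl3 have none.

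Levels were first compared within libraries, on the deposited TPM scale, which divides counts by gene length. The inhibitor gene Nfkbia was by far the most abundant member, with 287, 301 and 260 TPM in the LPS+LIPUS libraries and 263, 265.3 and 287 TPM in the LPS libraries. It ranked 453 of 20780 genes with any count. Nfkbib followed at 63.1 ± 1.43 TPM with LIPUS and 59.9 ± 3.32 TPM with LPS alone (SD, n = 3 each). Nfkb1 and Rela came next and could not be ordered, since their libraries spanned 38.7 to 42.3 TPM and 35.1 to 42.4 TPM over both groups. Relb, at 26.9 to 30.7 TPM, lay above Rel (18.6 to 26.6 TPM) in every library, while Rel, Nfkb2 (20.5 to 24.0 TPM) and Bcl3 (17.7 to 23.8 TPM) overlapped. Nfkbiz had 15.4 to 17.8 TPM and touched the range of Bcl3. Nfkbie, for IkB-epsilon, was the lowest at 8.07 to 12.0 TPM. The cytoplasmic inhibitors thus spanned the whole range of the family.

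The order of the middle of the list rested on the length used. The deposited Nfkb2 length of 7345 bases covers a predicted transcript of 7110 bases, but the curated transcript NM_019408.3, of 3205 bases, could hold 90.0% to 93.8% of the gene's counts. The same held for Nfkbiz, where the curated NM_030612.3 of 3855 bases could hold 93.4% to 95.5% of the counts of a gene entered at 7600 bases. With the length of the longest curated transcript in its place, a choice made after the data were seen, Nfkb2 was at 51.5 ± 4.16 with LIPUS and 52.4 ± 0.77 with LPS alone (SD, n = 3 each, TPM scale) and ranked 3 of the 10. Nfkbiz was at 34.4 ± 0.76 with LIPUS and 31.5 ± 1.14 with LPS alone and ranked above Rel. Nfkbia, Nfkbib and Nfkbie kept ranks 1, 2 and 10 under both lengths.

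**Figure D2:**
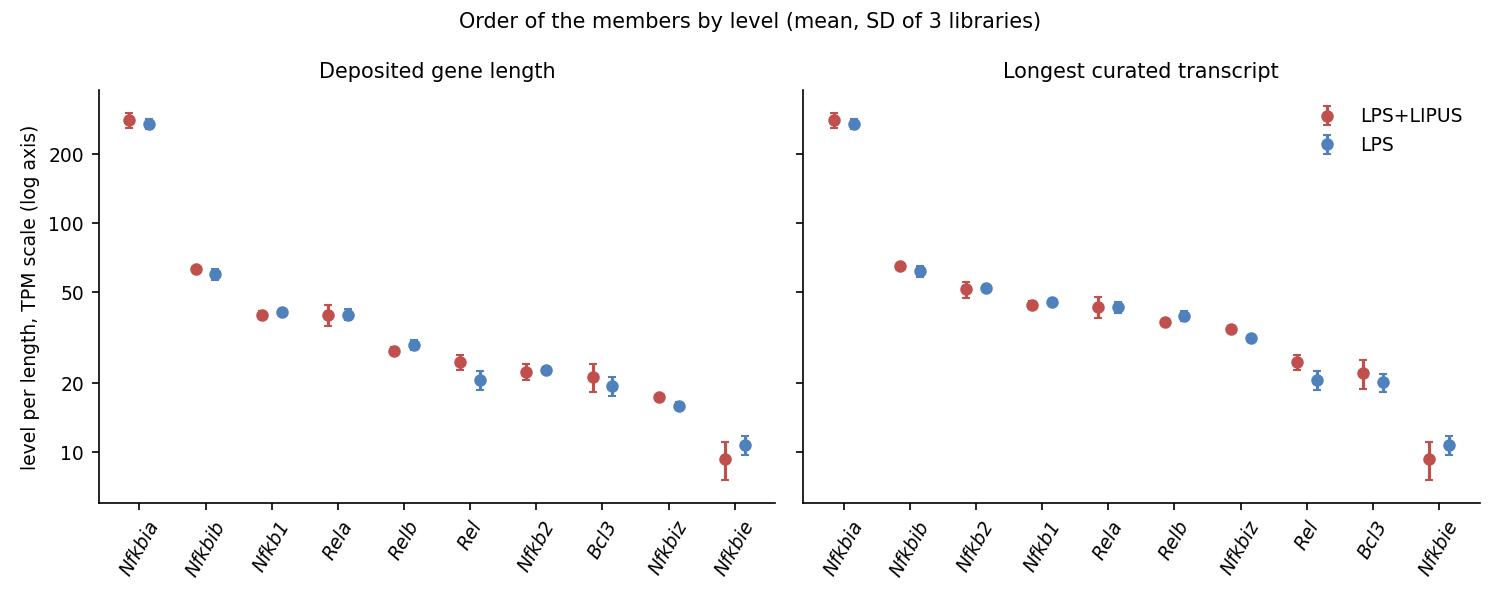
Mean level of each member with the SD of 3 libraries, on a log axis of the TPM scale, with the deposited gene length at left and the longest curated transcript at right. Nfkbia stands above 250 in both panels, and Nfkb2 moves from rank 7 to rank 3 between them.

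Summed over the genes, the cytoplasmic IkB transcripts outnumbered those of the 5 subunits. The ratio of the sums was 2.27, 2.58 and 2.06 in the LPS+LIPUS libraries and 2.27, 2.17 and 2.23 in the LPS libraries. The ultrasound libraries thus lay on both sides of the LPS libraries, and the ratio was set mainly by Nfkbia. With curated lengths it was 1.76, 2.00 and 1.602 with LIPUS and 1.75, 1.67 and 1.73 with LPS alone.

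The comparison of LPS+LIPUS with LPS alone asks whether transcript levels of these genes differ with ultrasound. None of the 10 genes passed the test, edgeR's quasi-likelihood test with a Benjamini-Hochberg adjusted p of 0.05 over 12571 genes, and 0% of all tested genes passed it. All 10 passed the filter on low counts. Rel had the largest difference and was 1.18-fold higher with LIPUS, while Nfkbie, the lowest gene, had the largest difference downwards, at 0.853-fold. The other 8 lay between 0.933-fold and 1.08-fold. The log2 fold change was positive for 5 members and negative for 5, with a median of 0.01, beside -0.01 for all tested genes. An unadjusted p below 0.05 was met by 1 member, Rel, and by 4.61% of all tested genes. Rel was higher with LIPUS, as were 2.99% of all genes at that p, and no member was lower at that p, where 1.61% of all genes were. Of the 95% intervals, 8 stayed inside 1.25-fold in either direction, as did 59.6% over all genes, and all 10 stayed inside 1.5-fold, as did 80.1%.

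**Figure D3:**
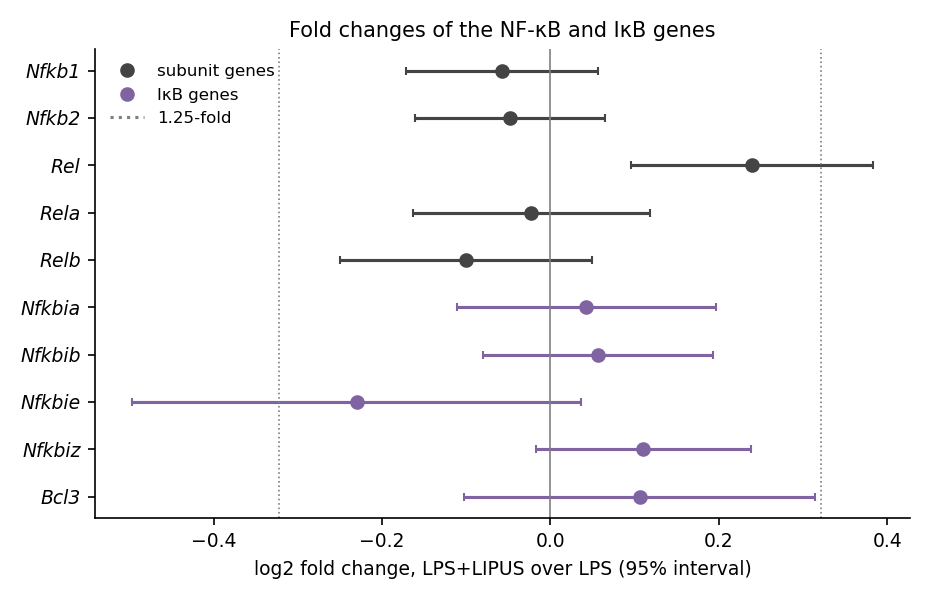
Log2 fold change of LPS+LIPUS over LPS for each subunit gene (dark) and IkB gene (violet), with its 95% interval from the fit over all genes; dotted lines mark 1.25-fold in each direction. The interval of Rel lies above 0 and the other 9 include 0.

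Values per gene below are CPM, counts per 1000000 of the scaled library size. Among the activating subunits, Rel, which encodes c-Rel, a subunit known in lymphocytes and macrophages for its part in interleukin-12 genes, had 87.5, 87.5 and 90.4 CPM in the LPS+LIPUS libraries and 76.9, 66.0 and 82.1 CPM in the LPS libraries. All ultrasound libraries lay above all LPS libraries, and the spread was wider among the LPS libraries, where library 2 was lowest. The log2 fold change was 0.24 ± 0.07 (SE, 95% interval 0.10 to 0.38), with an unadjusted p of 0.00258, which ranked 43 of 12571, and an adjusted p of 0.699. The authors' deposited table gives Rel a log2 fold change of 0.24 and an unadjusted p of 0.00342. Leaving out LPS library 2 brought the log2 fold change to 0.16 (edgeR adjusted p over 0.99), a change of over 1.5 times. Without any other single library it was 0.23 to 0.31.

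Rel is a long transcript of fairly low GC content, and fold changes varied with both. Its deposited length of 7465 bases exceeded that of 85.4% of tested genes, and its GC content of 42.5% exceeded that of 13.6%. The 450 tested genes over 6000 bases with less than 42% GC had a median log2 fold change of 0.10, and 83.1% of them were positive. In the class that holds Rel, over 6000 bases with 42% to 47% GC, the median of 781 genes was 0.02 and 62.0% were positive. With smooth trends of length and GC removed from each library, an alternative added after the data were seen, Rel had a log2 fold change of 0.20 ± 0.06 (SE, edgeR adjusted p = 0.840). The part of these trends in the remaining difference was not tested.

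The genes whose CPM most resembled Rel over the 6 libraries were Fnip1, which encodes a partner of folliculin, Npat, a coactivator of histone genes, and Zfp800, a zinc finger gene. Pearson's r with Rel was 0.99 for each and Spearman's rho 0.943. They were taken as the 3 highest values of Pearson's r among 8604 genes with at least 10 CPM, so no p is given. Without the 2 libraries farthest from the median of Rel, r was 0.959, 0.923 and 0.891. Their log2 fold changes were 0.26, 0.27 and 0.20, none past the test, and LPS library 2 was the lowest library for all 3. Their lengths were 6437, 7637 and 10396 bases and their GC contents 38.9%, 40.3% and 39.3%, so they too were long and low in GC.

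Rela encodes RelA, the activating subunit of the most common NF-kB dimer. It had 57.6, 51.3 and 55.2 CPM with LIPUS and 52.7, 56.4 and 57.7 CPM with LPS alone. The groups overlapped almost fully, and the log2 fold change was -0.02 ± 0.07 (SE, 95% interval -0.16 to 0.12). Its sign turned to 0.021 without LPS+LIPUS library 2 and to 0.0070 without LPS library 3. Relb encodes RelB, which pairs with the product of Nfkb2 in the non-canonical pathway. Relb had 40.1, 40.5 and 37.0 CPM with LIPUS and 40.4, 43.0 and 42.6 CPM with LPS alone. The highest ultrasound library just exceeded the lowest LPS library, and the log2 fold change was -0.10 ± 0.07 (95% interval -0.25 to 0.05). Without LPS+LIPUS library 3 it was -0.058.

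Of the precursor genes, Nfkb1, the partner of RelA in the canonical dimer, had 84.5, 90.1 and 86.2 CPM with LIPUS and 89.1, 88.4 and 93.9 CPM with LPS alone. The Nfkb1 groups overlapped, at a log2 fold change of -0.06 ± 0.05 (SE) with a 95% interval of -0.17 to 0.06. It was -0.027 without LPS library 3 and -0.084 without LPS+LIPUS library 2. Nfkb2 had 79.8, 76.7 and 80.1 CPM with LIPUS and 81.4, 80.5 and 82.7 CPM with LPS alone. All ultrasound libraries lay below all LPS libraries on this scale, by a small margin, and the log2 fold change was -0.05 ± 0.05. It was -0.028 without LPS+LIPUS library 2. On the deposited TPM scale the Nfkb2 groups overlapped, at 22.9, 20.5 and 24.0 TPM with LIPUS and 22.5, 23.0 and 23.1 TPM with LPS alone. Overlapping genes on the opposite strand, Gm46827 at Nfkb1 and Psd and 4833438C02Rik at Nfkb2, can share reads with them, since whether strand was used in counting is not given. They held 809, 1103 and 190 counts over all libraries, against 7966 for Nfkb1 and 7204 for Nfkb2.

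As a share of the summed TPM of the 5 subunits, Rel made up 15.7%, 15.9% and 16.4% in the LPS+LIPUS libraries and 14.1%, 12.0% and 14.2% in the LPS libraries. The groups did not overlap, as with its CPM. Rela and Nfkb1 each made up about the same part of the pool, at 25.8% ± 1.29 and 25.8% ± 1.05 with LIPUS and 26.0% ± 0.79 and 26.6% ± 0.18 with LPS alone (SD, n = 3 each). The share of Relb was 18.2%, 18.7% and 17.1% with LIPUS and 18.8%, 19.9% and 18.7% with LPS alone. The nearest libraries of the Relb groups were equal to that precision. These shares rest on the deposited lengths, with Nfkb2 at a mean of 14.5% with LIPUS and 14.9% with LPS alone. With curated lengths Nfkb2 had the largest mean share, 25.7% with LIPUS and 26.1% with LPS alone. Nfkb1 was then at 22.0% and 22.6%, Rela at 21.4% in both groups and Rel at 12.4% and 10.3%. Shares sum to a fixed total, so a larger share of Rel leaves less for the others, and these shares were given no test.

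**Figure D4:**
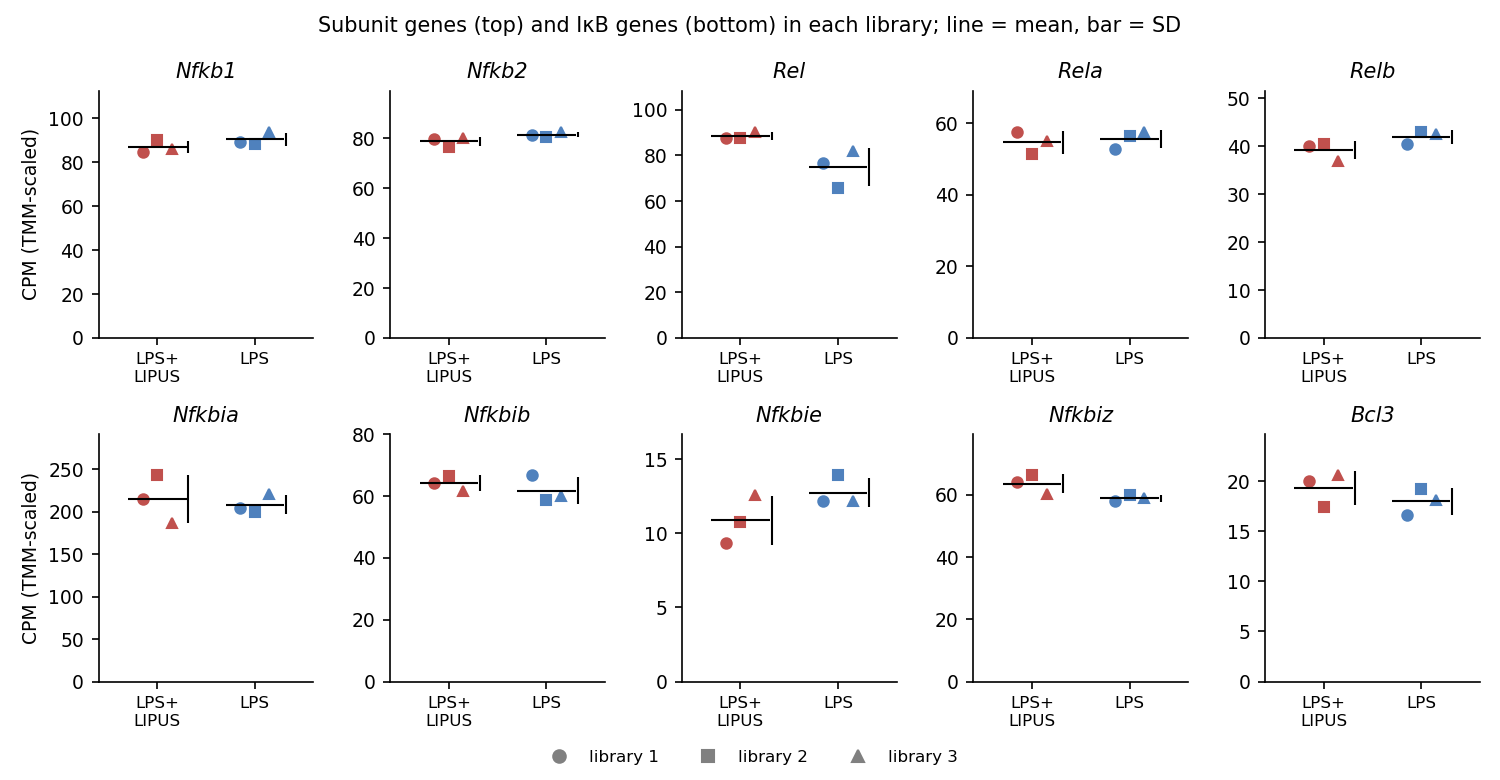
CPM of each member in each of the 6 libraries, with the mean (line) and SD (bar) of the LPS+LIPUS and LPS groups; each vertical axis starts at 0. Rel and Nfkbiz are higher in all 3 LPS+LIPUS libraries than in any LPS library, and Nfkb2 is lower in all 3.

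Among the cytoplasmic inhibitors, Nfkbia, whose product IkB-alpha is resynthesised on NF-kB activation and ends the response, had 214, 243 and 186 CPM with LIPUS and 205, 199 and 221 CPM with LPS alone. The ultrasound libraries lay on both sides of the LPS libraries, and their SD was 28.2 CPM against 11.04 CPM. The log2 fold change was 0.04 ± 0.07 (SE, 95% interval -0.11 to 0.20). It was -0.055 without LPS+LIPUS library 2 and 0.14 without LPS+LIPUS library 3, so its sign rested on 1 library. Among the LPS+LIPUS libraries the heat shock gene Hspa1b followed the same order as Nfkbia, at 15.8, 33.9 and 5.66 CPM. Among the LPS libraries the order differed, with Hspa1b at 8.90, 4.38 and 7.94 CPM and highest in library 1, where Nfkbia was highest in library 3. Other early and heat shock genes, listed below, were mixed in this. Dnajb1 had another order with LIPUS, at 29.0, 41.2 and 31.6 CPM. With LPS alone Dnajb1 had the order of Nfkbia, at 32.1, 29.7 and 33.2 CPM. Fos was highest in LPS+LIPUS library 3, where Nfkbia was lowest. Atf3 followed the order of Nfkbia in both groups. It had 133, 157 and 117 CPM with LIPUS and 134, 113 and 139 CPM with LPS alone. Hspa1a followed that order in both groups too, at few counts (25 over the LPS+LIPUS libraries and 15 over the LPS libraries). Only 3 libraries set each order, and the genes of the list were not counted for it. The part of these genes in the spread of Nfkbia was not tested.

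Nfkbib, for the more slowly degraded IkB-beta, had 64.3, 66.7 and 61.8 CPM with LIPUS and 66.7, 58.7 and 59.9 CPM with LPS alone. LPS library 1 was as high as the highest ultrasound library, and the log2 fold change was 0.06 ± 0.06 (SE). It was 0.12 without LPS library 1 and 0.023 without LPS library 2. Nfkbie had 9.32, 10.7 and 12.6 CPM with LIPUS and 12.1, 13.9 and 12.2 CPM with LPS alone. LPS+LIPUS libraries 1 and 2 lay below all LPS libraries and library 3 within their range. The Nfkbie log2 fold change was -0.23 ± 0.13 (95% interval -0.50 to 0.04, unadjusted p = 0.0866, edgeR adjusted p = 0.999). With 137 to 219 counts per library it was the least precisely measured member. Its log2 fold change was -0.34 without LPS+LIPUS library 3 and -0.13 without LPS+LIPUS library 1.

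Both nuclear IkB genes had small positive fold changes. Nfkbiz, for IkB-zeta, which is needed for a set of secondary LPS response genes, had 64.2, 66.2 and 60.4 CPM with LIPUS and 57.9, 59.99 and 58.9 CPM with LPS alone. Every ultrasound library lay above every LPS library, the nearest by a narrow margin, and the log2 fold change was 0.11 ± 0.06 (SE, 95% interval -0.02 to 0.24, unadjusted p = 0.0864, edgeR adjusted p = 0.999). Bcl3, an atypical IkB that binds homodimers of the Nfkb1 and Nfkb2 products, had 20.1, 17.4 and 20.6 CPM with LIPUS and 16.6, 19.2 and 18.1 CPM with LPS alone. The Bcl3 groups overlapped, and its log2 fold change was 0.11 ± 0.10. It was 0.051 without LPS library 1 and 0.18 without LPS+LIPUS library 2. Over the family, the groups did not overlap in 3 of the 10 genes, Rel, Nfkbiz and Nfkb2, beside 9.72% of all tested genes. Rel and Nfkbiz were higher in every LPS+LIPUS library, as were 5.09% of all genes, and Nfkb2 was lower, as were 4.63%. The 4 genes with a kappaB match before a start had log2 fold changes of 0.24 (Rel), 0.04 (Nfkbia), -0.05 (Nfkb2) and -0.23 (Nfkbie), none of which passed the test.

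Isoforms were read from the transcript table, in which a read can count for several transcripts of 1 gene, so its values are not independent. By edgeR's quasi-likelihood test 0 of the 30 member transcripts passed, as did 0% of the 52257 transcripts tested. An unadjusted p below 0.05 was met by 1 member transcript, NM_009044.3, the single entry for Rel, beside 5.38% of all transcripts. Its log2 fold change was 0.24 ± 0.07 (SE, adjusted p = 0.339). With no filter on low counts, where 242 transcripts passed, its edgeR adjusted p was 0.0476. The groups did not overlap in 12 member transcripts, 3 higher and 9 lower with LIPUS, beside 10.4% of all transcripts. Of the 52257 transcripts, 3000 were higher and 2440 lower in this way. The 9 were the 4 Nfkb2 entries and 5 of Relb, and can count the same reads. In the gene counts the Relb groups overlapped. Within most genes the entries had nearly equal fold changes. The 7 Relb entries had log2 fold changes of -0.13 to -0.10, the 4 Nfkbiz entries 0.08 to 0.12 and the 4 Rela entries -0.03 to -0.02.

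Bcl3 was the gene whose entries differed most. The curated NM_033601.3 could hold 99.0% to 99.3% of the gene's counts with LIPUS and 99.6% to 100% with LPS alone, and its log2 fold change was 0.10 ± 0.10 (SE). The predicted XM_006539487.4 could hold 65.1%, 75.4% and 70.5% with LIPUS and 78.5%, 72.3% and 76.6% with LPS alone, and its log2 fold change was -0.004 ± 0.11. The groups overlapped through LPS+LIPUS library 2 and LPS library 2. The predicted entry had 192, 187 and 210 counts with LIPUS and 205, 219 and 206 counts with LPS alone. The antisense-strand gene Gm16174, with 54 counts in all, overlaps Bcl3. In Nfkbie the shorter NM_001304956.1 could hold 91.2%, 86.3% and 86.3% of counts with LIPUS and 92.1%, 88.6% and 87.8% with LPS alone, which also overlapped.

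**Figure D5:**
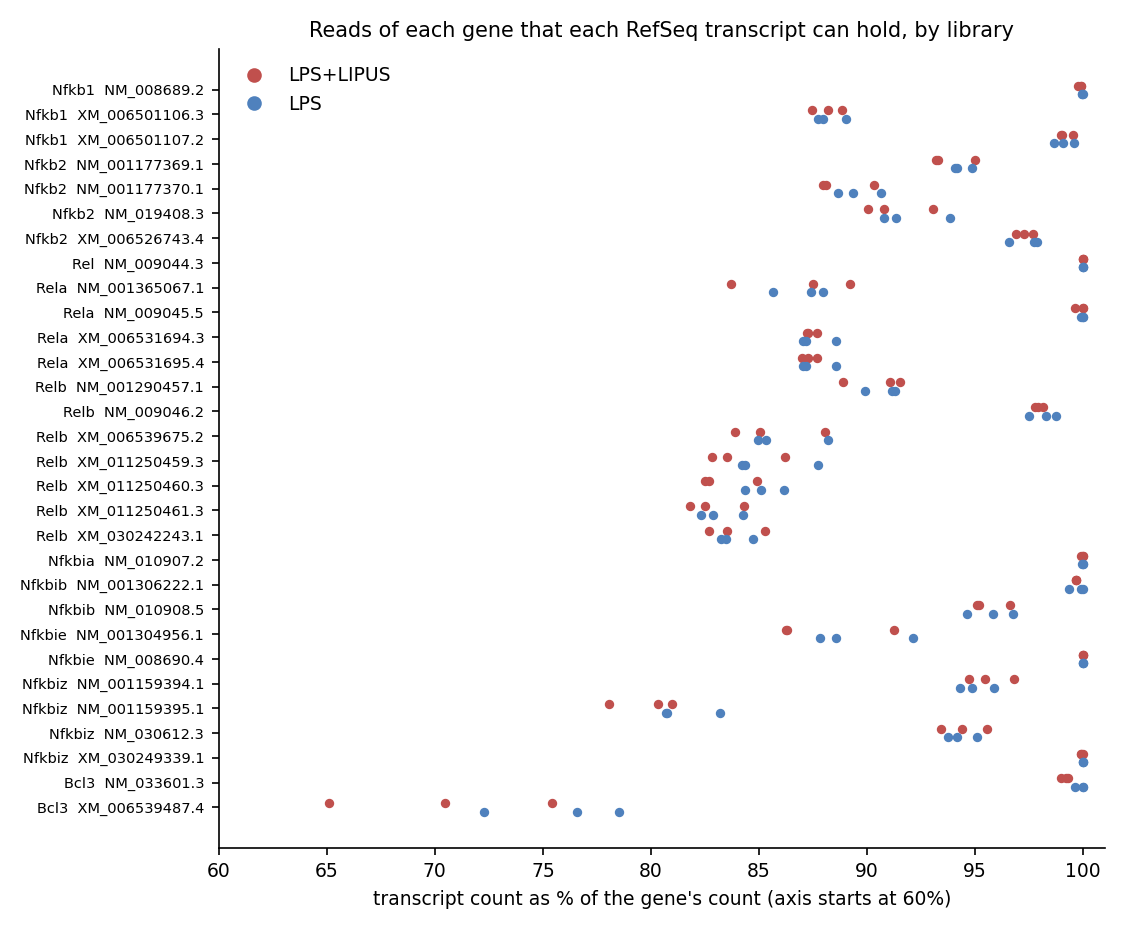
Share of each gene's counts that each RefSeq transcript entry can hold, in percent, with 1 point per LPS+LIPUS library (red, upper) and per LPS library (blue, lower); the axis starts at 60%. Most entries lie above 80% in both groups, and the predicted Bcl3 entry spreads most, over 65.1% to 78.5%.

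The steps before and after NF-kB were read from lists of genes. Of 28 genes of the IKK complex and its activating steps 27 were tested, none passed, and 0 had an unadjusted p below 0.05. Their median log2 fold change was 0.02, with 17 positive and 10 negative. The smallest p belonged to Map3k8, a kinase held by the Nfkb1 precursor, with 23.7, 23.9 and 24.7 CPM with LIPUS and 22.4, 20.4 and 21.4 CPM with LPS alone (log2 fold change 0.17 ± 0.08, SE). The groups did not overlap in Map3k8, the 1 such gene of the 27, beside 9.72% of all tested genes. Next were Btrc, whose ubiquitin ligase recognises phosphorylated IkB (-0.12 ± 0.08), the IKK-alpha gene Chuk (0.09 ± 0.07) and Rbck1, of the linear ubiquitin ligase (-0.06 ± 0.05).

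Of 20 negative regulators of the pathway, such as deubiquitinases and their adaptors, all 20 were tested, 15 were negative, where 52.4% of all tested genes were, and none passed. Their median log2 fold change was -0.02, and every interval lay within 1.25-fold. Nkiras2, which encodes a small GTPase-like protein that slows the degradation of IkB-beta, was at -0.13 ± 0.07 (SE), Tnip2 at 0.09 ± 0.06, the interleukin-1 receptor kinase family inhibitor Irak3 at -0.09 ± 0.09 and the adaptor Tax1bp1 at 0.06 ± 0.06.

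Of 34 genes commonly induced by NF-kB 28 were tested, with 15 negative and 13 positive, a median log2 fold change of -0.02, and 0 past the test or at an unadjusted p below 0.05. The smallest p belonged to the cytokine gene Tnf (0.11 ± 0.05, SE), the chemokine gene Ccl2 (-0.25 ± 0.13), the prostaglandin synthase gene Ptgs2 (0.11 ± 0.06) and Ebi3, for a cytokine subunit (-0.10 ± 0.07). The groups did not overlap in 2 of the 28 genes, Tnf (higher with LIPUS) and Ccl2 (lower), beside 9.72% of all tested genes. Without LPS+LIPUS library 3 the log2 fold change of Ccl2 was -0.14. The median of the list turned positive without LPS library 1 (0.048) and without LPS+LIPUS library 3 (0.045), and was -0.058 without LPS+LIPUS library 2. Of 20 partners, co-activators and modifiers of NF-kB all 20 were tested, 16 were negative, where 52.4% of all tested genes were, and the median was -0.03. Jun had an unadjusted p of 0.0454 with a log2 fold change of -0.25 ± 0.11 and was the 1 gene of the 20 below 0.05, a share near the 4.61% of all tested genes. With DESeq2, limma-voom or upper-quartile scaling none was below 0.05, and the log2 fold change of Jun was -0.089 without LPS library 3 and -0.42 without LPS library 1. Akirin2, which links NF-kB to chromatin remodelling, was at -0.15 ± 0.08, Nono at -0.07 ± 0.06 and the acetyltransferase gene Kat2a at 0.08 ± 0.07.

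A list of genes that respond within minutes to many stimuli, among them Fos and heat shock genes, was read beside the NF-kB lists. Of 17 listed, 16 were tested and 0 passed. By edgeR 8 had an unadjusted p below 0.05, of which 7 were lower and 1 higher with LIPUS, beside 4.61% of all tested genes. The list was chosen with earlier results of these data known, so this count is no test of the list. The count rested on single libraries and on the tool. It was 1 with DESeq2, 6 with limma-voom, 7 with upper-quartile scaling and 9 with the replicate block. Of the LPS libraries, it was 10 without library 1, 4 without library 2 and 1 without library 3. Of the LPS+LIPUS libraries, it was 2 without library 1, 3 without library 2 and 11 without library 3. Fos had 173, 183 and 327 CPM with LIPUS and 223, 389 and 489 CPM with LPS alone, with a log2 fold change of -0.69 ± 0.22 (SE). LPS+LIPUS library 3 lay within the LPS range, and without it Fos was at -1.04 and passed (edgeR adjusted p = 0.0198), while without LPS library 3 it was at -0.42. Without LPS+LIPUS library 3 Hspa1b, at 1.38 ± 0.39 with all libraries, passed as well (1.82, edgeR adjusted p = 0.00188), while without LPS+LIPUS library 2 it was at 0.61. Klf2 was at -0.37 ± 0.13 and Dusp1 at -0.33 ± 0.12. No member of the NF-kB and IkB group passed without that library.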

How the data were processed

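RNA of 6 poly(A)-selected, paired-end libraries was measured, per the labels' protocols. The submitters' processing notes name bcl2fastq and mm10; for the aligner, counter, annotation release and strand setting, the entry is not given in the sources used here. The authors deposited counts per gene and per transcript, and deposited TPM, which per the file headers and values is the count over length scaled to a fixed sum of 1000000 for genes. Per the file headers, the tables of the authors' own comparison hold log2 fold changes, unadjusted p-values and a normalised signal per library, of which the signal was not used.

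Everything else was computed in R 4.3.3 from the deposited counts: edgeR 4.0.16 (TMM scaling, filterByExpr with a minimum count of 10 by group, glmQLFit and glmQLFTest with group as the one term, two-sided, Benjamini-Hochberg over 12571 genes or 52257 transcripts). Standard errors and 95% intervals are from that fit. The fit's biological coefficient of variation was 5.84%. Alternatives used DESeq2 1.42.0, limma 3.58.1, other scalings and filters, a replicate block, each library left out, and length and GC trends (mgcv 1.9.3, GENCODE M21 transcripts, matched for 93.5% of tested genes). Within groups, library pairs differed by 2.64 to 9.87 times the sampling variance, so no library was another one sequenced again. Pairs across the groups differed by 3.13 to 7.22 times. These values cannot tell separate cultures from separate libraries of 1 culture. The members and gene lists were chosen with earlier results of these data known. Named are all members and, per list, up to 4 genes with the smallest p, plus the 3 genes most like the member with the smallest p. Skp1a was listed but not matched by that symbol. No value belonged to a column of another series.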

Additional observations from a re-analysis of the deposited data

How the results depend on the processing

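No member gene passed the test under any of the 14 alternatives, and Nfkb1, Nfkb2, Rel, Relb, Nfkbib, Nfkbie, Nfkbiz and Bcl3 kept their direction under all of them. The adjusted p of Rel (edgeR, DESeq2 or limma) ranged from 0.0877 with no filter to over 0.99. Leaving out 1 library at a time gave Rela -0.059 to 0.021 and Nfkbia -0.055 to 0.14. Of the transcript entries, NM_010907.2 of Nfkbia had -0.066 to 0.14, the Rela entries NM_001365067.1 -0.069 to 0.0027, NM_009045.5 -0.063 to 0.0086, XM_006531694.3 -0.062 to 0.0054 and XM_006531695.4 -0.064 to 0.0034, and XM_006539487.4 of Bcl3 -0.046 to 0.023.

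The count of genes past the threshold was 0, and 31 with no filter on low counts, none of them a member. It was 0 to 6 without 1 library: 2 without LPS library 1, 3 without LPS+LIPUS library 2 and 6 without LPS+LIPUS library 3. The count of transcripts was 0, 242 with no filter, of which 1 was a member entry, NM_009044.3 of Rel (adjusted p = 0.0476), and 0 to 10 without 1 library. With no filter 6 early and heat shock genes passed, of which 1, Jun, is also listed among the partners. Without 1 library 0 to 3 early and heat shock genes did. With no filter the SE of Fos was 0.056, against 0.216 with the filter, and that of Hspa1b was 0.123, against 0.393. The groups overlapped for both genes, and their calls with no filter came with these smaller SEs. For NM_009044.3 of Rel the SE was 0.064 with no filter, against 0.068 with it, and its groups did not overlap. The ratio of cytoplasmic IkB to subunit transcripts was 1.79 with LIPUS and 1.72 with LPS alone when curated lengths were used. In these settings the cause was not tested.

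Replicate numbers are shared by the groups, but the labels tie them to nothing. The deviations of same-numbered libraries correlated at -0.001, -0.10 and 0.004. No library correlated best with its own number, so the numbers were not taken as pairs. With the replicate block 5 genes, 11 transcripts and 2 early genes passed, and no member gene. Depth limited Nfkbie most, at 137 to 219 counts per library.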

Other observations

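Several genes commonly induced by NF-kB had few or no counts in either group. Il12b, the gene of an interleukin-12 subunit, the chemokine gene Cxcl1 and the adhesion molecule gene Vcam1 had 0 counts in all 6 libraries, which allows up to 3 counts, or 0.0334 CPM over the libraries together (counting error only). Il6 had 4 counts over the LPS+LIPUS libraries and 7 over the LPS libraries, and Csf2, for a colony-stimulating factor, had 1 over the LPS+LIPUS libraries and 5 over the LPS libraries. Bcl2a1a, of the anti-apoptotic Bcl-2 family, had 16 over the LPS+LIPUS libraries and 8 over the LPS libraries, and has near-identical copies with which it can share reads. These genes were below the filter on low counts, so no test was made.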
